A study of Mus musculus with 6 samples.

Results

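The 9 genes described here code for the enzymes that take up acetate, release it, carry the citrate route to cytosolic acetyl-CoA and commit acetyl-CoA to malonyl-CoA. They were chosen by name, not by measured values, and are Acss1, Acss2, Acss3, Acot8, Acot12, Slc25a1, Acly, Acaca and Acacb, 9 of the 35968 genes with a transcript in the files. Of these, 7 passed the filter on low counts, and Acss1 and Acot12 did not. RNA-seq was performed on MS-5, a mouse stromal cell line that supports haematopoiesis, in 3 libraries of cells cultured alone (MS-5 only, MO1 to MO3) and 3 libraries of cells co-cultured with SKM-1, a human AML cell line (co-culture, MC1 to MC3). The study dealt with acetate that stromal cells release and AML cells consume. The comparison asks how far the RNA of the acetate-handling enzymes in stromal cells differed when AML cells were present.

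Co-culture lasted 24 hr, with 4 AML cells per stromal cell and 750000 AML cells per ml plated over confluent MS-5 cells. Both groups grew in RPMI 1640 with serum, glutamine and antibiotics, and the labels name no genetic change or added agent for any library. The stromal cells were separated from the AML cells before RNA extraction, and the reads were assigned to mouse transcripts only. All 6 libraries came from 1 stromal line and the co-cultures from 1 AML line. The labels number the libraries 1 to 3 in each group without saying that they were separate cultures, so p-values measure the spread between these libraries, which may be technical. The RNA is a bulk measurement, in which fewer cells with a transcript and less of it per cell cannot be told apart.

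Acetate enters metabolism only after an acetyl-CoA synthetase has joined it to coenzyme A, in the cytosol and nucleus by ACSS2 and in mitochondria by ACSS1, while mitochondrial ACSS3 prefers propionate. Most cytosolic acetyl-CoA is otherwise made from citrate, which the carrier SLC25A1 moves out of mitochondria and ATP citrate lyase, ACLY, cleaves. Acetyl-CoA carboxylases turn acetyl-CoA into malonyl-CoA for fatty acid synthesis, and thioesterases such as ACOT12 hydrolyse acetyl-CoA back to acetate.

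The total of estimated counts lay between 23978881 and 35694987 per library. MO2 and MC3 stood apart from the other 4 libraries, with 65170 and 66456 transcripts with a count against 51533 to 57350, mitochondrial transcripts at 6.07% and 5.92% of counts against 10.6% to 13.2%, and retained-intron transcripts at 5.22% and 5.36% of all TPM against 2.46% to 2.73%. Of 10 stromal markers, 9 had counts in every library, but Lum, a matrix proteoglycan of fibroblasts, was at 0 in 5 of the 6 libraries. Among 10 leukocyte markers, 5 of the 7 that were tested passed the threshold (Ptprc, Spi1, Laptm5, Coro1a and Irf8, all higher in co-culture). The summed level of all 10 was 4.03 to 7.77 CPM (counts scaled to library size, with TMM factors) in MS-5 only. In co-culture it was 41.5 to 226 CPM, highest in MC2. Cd53 made up most of the sum in MS-5 only, at 2.75, 4.42 and 6.66 CPM in MO1, MO2 and MO3. Cd53 was not higher in co-culture, at 4.70, 4.53 and 3.58 CPM in MC1, MC2 and MC3. Its log2 fold change was −0.11 (edgeR, adjusted p = 0.964). Mpo had a positive log2 fold change of 4.74 but did not pass (edgeR, adjusted p = 0.121). Cd33, not tested, averaged 0.242 CPM in MS-5 only and 0.158 CPM in co-culture. Ptprc, Spi1, Laptm5 and Irf8 averaged 0 to 0.333 CPM in MS-5 only. They passed the count filter through the co-culture libraries, so their calls depend in part on that filter. Irf8, a myeloid transcription factor, had 0 counts in all MS-5 only libraries, and Csf3r, the receptor of a granulocyte growth factor, had at most 1 count in any library.

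The promoters of Acss2, Slc25a1 and Acly are shown first, because Acss2 and Slc25a1 are the tested members that passed both with a covariate for the libraries standing apart and without those libraries, and Acly is the most abundant enzyme of the citrate route, whose level differed by less than the spread between libraries. The sequences are RefSeq promoters of build GRCm38.p6, read 5′ to 3′ on the gene's strand, for chr2:155517793-155517947 (Acss2, + strand), chr16:17928220-17928469 (Slc25a1, − strand) and chr11:100528001-100528250 (Acly, − strand). Each window held the 250 bases before the RefSeq start, and for Acss2 the last 95 bases are left out because the annotated gene starts earlier. Capitals mark the words CCAAT and GGGCGG, the word ACGTG, and their reverse complements.
Acss2: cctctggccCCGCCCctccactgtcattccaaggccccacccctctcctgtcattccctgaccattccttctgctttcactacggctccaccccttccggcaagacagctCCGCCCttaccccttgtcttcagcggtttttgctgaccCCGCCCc
Slc25a1: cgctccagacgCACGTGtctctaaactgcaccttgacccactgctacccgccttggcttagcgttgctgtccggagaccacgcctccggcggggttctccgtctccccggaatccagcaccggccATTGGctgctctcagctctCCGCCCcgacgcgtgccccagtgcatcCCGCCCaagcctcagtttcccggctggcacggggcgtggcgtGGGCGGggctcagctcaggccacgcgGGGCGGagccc
Acly: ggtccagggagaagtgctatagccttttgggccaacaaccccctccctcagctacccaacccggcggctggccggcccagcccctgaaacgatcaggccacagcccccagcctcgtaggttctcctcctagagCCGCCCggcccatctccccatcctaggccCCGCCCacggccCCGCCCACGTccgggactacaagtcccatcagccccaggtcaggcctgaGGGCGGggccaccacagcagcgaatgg
The 3 promoters were rich in G and C, at 64% for Acss2, 70% for Slc25a1 and 68.8% for Acly over the 250 bases. GGGCGG, the core of a GC box, occurred 4 times in each of them on either strand, with 3 of the Acss2 copies within the stretch shown. It also occurred 2 times for Acss1 and 1 time each for Acot8 and Acot12 but not for Acaca or Acacb, so that 6 of the 8 members with an entry had it, against 32.7% of the 32851 mouse promoters of this length. CCAAT occurred 1 time each for Acss2 (in the part left out) and Slc25a1, 1 time for Acacb and 3 times for Acot8, against 33.8% of all promoters with a match. CACGTG, an E-box, was found among the members only for Slc25a1, against 6.02% of all promoters, and contains ACGTG on both strands. ACGTG, the core of the hypoxia response element, was found for Slc25a1, Acly and Acacb, against 16.6% of all promoters. TCACNCCAC, a form of the sterol regulatory element, was found for none of the 8 members with an entry in the table, against 1.05% of all promoters. A match is a description of these letters, not a bound site, and its absence says nothing of the factor. For Acss3 no promoter entry was used.

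The citrate route was the most abundant part of the set in MS-5 cells, and the acetate synthetases were among the least. Levels were compared between genes in TPM, which takes transcript length into account. In MS-5 only, Slc25a1 had 66.5 ± 5.95 TPM (SD, n = 3) and Acly 62.0 ± 23.0 TPM, with overlapping ranges. They were followed by Acaca with 19.1 ± 4.98 TPM and Acot8 with 14.6 ± 4.14 TPM, which also overlapped. Acss2 had 3.74 ± 1.44 TPM, a range that overlapped that of Acacb at 1.67 ± 1.32 TPM. Acss3 at 0.579 ± 0.406 TPM overlapped its neighbours Acacb and Acot12, and Acot12 and Acss1 were lowest, at 0.302 ± 0.148 and 0.0425 ± 0.0621 TPM.
In co-culture the order of the first 6 genes was the same, but Slc25a1 at 95.3 ± 5.62 TPM now stood apart from Acly at 58.6 ± 16.8 TPM. Acss2 at 6.56 ± 0.411 TPM likewise stood apart from Acacb at 2.41 ± 1.78 TPM. TPM was highest in MO2 among the MS-5 only libraries for all 9 genes, and highest in MC3 among the co-cultures for 7 of 9, the exceptions being Acss1 and Acss2.

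In the comparison of co-culture with MS-5 only, 0 of the 7 tested members passed the threshold in edgeR's quasi-likelihood test, an adjusted p-value under 0.1 over all 13221 genes tested, where 4.38% of all genes passed. At an unadjusted p-value under 0.05 there was 1 member, Acss2, against 14.3% of all genes. DESeq2 called 1 member (9.59% of all genes) and limma on log2(TPM + 0.5) called 0 (2.00% of all genes). By CPM the 3 co-culture libraries lay above all MS-5 only libraries for Acss2 and Acss3 and below them for Acaca, 3 of 7 members, against 21.2% of all genes (11.6% above and 9.60% below). The median log2 fold change of the 7 members was 0.38, the value of Acacb, and that of all genes tested was −0.02. The members' median was 0.21 without MO1, 0.19 without MO3 and 0.11 without MC3.

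**Figure D1:**
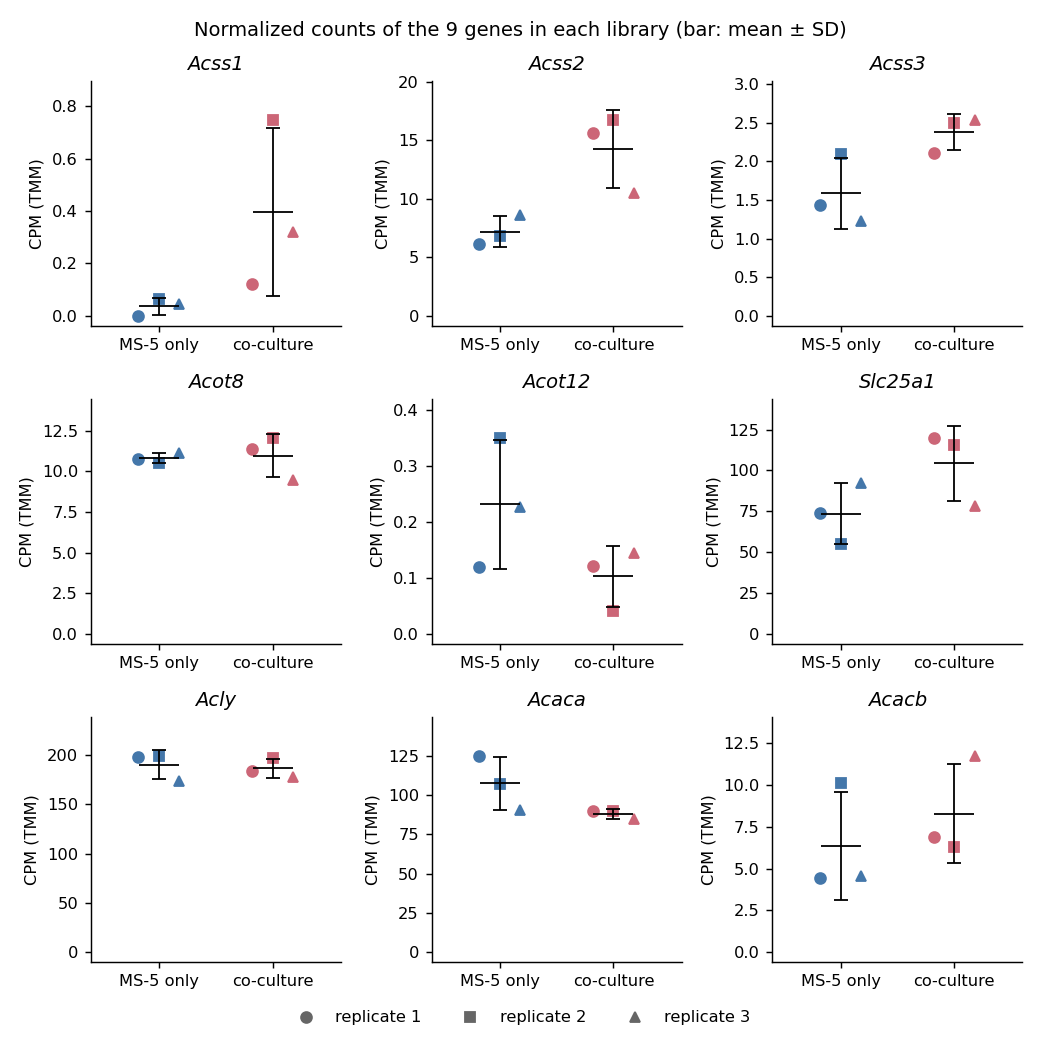
Normalized counts (CPM, TMM) of the 9 genes on separate linear axes, with 1 point per library, its shape giving the replicate number, blue for MS-5 only and red for co-culture, and bars for the mean ± SD of 3 libraries. The co-culture points of Acss2 (10.5 to 16.7) lie above the MS-5 only points (6.11 to 8.66), while those of Acly and Acot8 lie among each other.

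Acss2 codes for the cytosolic and nuclear acetyl-CoA synthetase and had the smallest p-value of the set. Its gene lies at chr2:155517948-155585724 on the + strand (GRCm38). Acss2 measured 6.11, 6.84 and 8.66 CPM in MO1, MO2 and MO3, and 15.7, 16.7 and 10.5 CPM in MC1, MC2 and MC3. The groups did not overlap, and MC3 was the lowest co-culture library. The log2 fold change was 0.99 (SE 0.24, 95% interval 0.41 to 1.57), with an unadjusted p-value of 0.00534 and an adjusted p-value of 0.111 in edgeR, so that Acss2 narrowly missed the threshold.
The call depended on the treatment of MO2 and MC3, on the normalization and on the test. Between MC3 and MO2 the log2 difference in CPM of Acss2 was 0.61, and between the means of the other libraries it was 1.15. When edgeR was given a covariate for MO2 and MC3, Acss2 had a log2 fold change of 0.96 (SE 0.18, adjusted p = 0.0201), in a fit that called 30.2% of all genes. Without both libraries it was 1.15 (SE 0.21, adjusted p = 0.0770), where 13.0% of genes were called. Without MC3 alone it was 1.17 (SE 0.22, adjusted p = 0.0652), and 4.11% of genes were called. With library size in place of TMM the adjusted p-value was 0.0969, and 4.05% of genes were called. DESeq2's Wald test on all 6 libraries also called Acss2 (log2 fold change 1.00, adjusted p = 0.00698). The log2 fold change was positive in all 18 alternatives, from 0.72 to 1.17, with adjusted p-values from 0.00698 to 0.452.

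Most of the Acss2 signal came from a single transcript. Acss2-201, a coding transcript with 18 exons and 2931 bases, held 84.2% of the gene's TPM over the 6 libraries. It measured 2.32, 3.88 and 2.56 TPM in the MS-5 only libraries, against 6.0, 5.06 and 6.20 TPM for co-culture, again without overlap. The coding transcript Acss2-203, which starts downstream, was estimated at 0.724 TPM in MO3 and 1.05 TPM in MC2 and at 0 in the other 4 libraries. Acss2 overlaps Ggt7, Gss and the antisense gene Acss2os on the other strand. The paper names a stranded library kit, but whether counting used strand is not given in the sources used here. Reads of the shared stretches therefore cannot be told apart. Acss2 also overlaps the processed pseudogenes Mipep-ps and Gm20637 on its own strand.

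Acss3 and Acss1, the mitochondrial members of the family, had fewer counts than Acss2, and only Acss3 passed the count filter. Acss3 lies at chr10:106933517-107123668 on the − strand. Acss3 measured 1.44, 2.10 and 1.22 CPM in the MS-5 only libraries, against 2.11, 2.49 and 2.53 CPM for co-culture. MC1 exceeded MO2 by a margin far below the spread within either group, and in TPM the groups overlapped. Its log2 fold change was 0.58 (SE 0.33, 95% interval −0.21 to 1.36) and did not pass (edgeR, adjusted p = 0.515). By limma on log2(TPM + 0.5) it was 0.28. Over 18 alternatives it ran from 0.19 to 0.83, always positive and never past the threshold. The coding transcript Acss3-203 held 72.8% of its TPM and the short Acss3-202, annotated as a processed transcript, 24.7%. Acss3-202 was estimated at 0.382 TPM in MO2 and 0.370 TPM in MC3 but at no more than 0.122 TPM elsewhere.

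Acss1 lies at chr2:150618105-150668500 on the − strand and had 0, 2 and 1 counts in the MS-5 only libraries, against 4, 18 and 11 counts for co-culture. These are 3 against 33 counts, a ratio of 9.47 after normalization with an exact 95% counting interval of 2.97 to 48.3, which covers counting error only. All co-culture libraries were above all MS-5 only libraries, with MC2 the highest. In counts, 9.72% of the 9711 genes under the filter with at least 1 count showed this pattern. Without the filter the log2 fold change was 3.24 (SE 1.13) and did not pass (edgeR, adjusted p = 0.262).
In co-culture the counts lay mainly outside the coding transcript. Acss1-202, a processed transcript of 5 exons, held 74.5% of the gene's TPM, and Acss1-203, a retained intron, held much of the rest. Acss1-202 was estimated at 0, 0.0961 and 0 TPM in the MS-5 only libraries, against at 0.212, 1.10 and 0.792 TPM for co-culture. The coding Acss1-201, with 14 exons, was estimated at 1.16 counts in MO2, 1 count in MO3, 2.75 counts in MC3 and 0 in the other 3 libraries. MC2 was also the library with the highest leukocyte marker sum, and the part of these markers in the Acss1 difference was not tested.

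**Figure D2:**
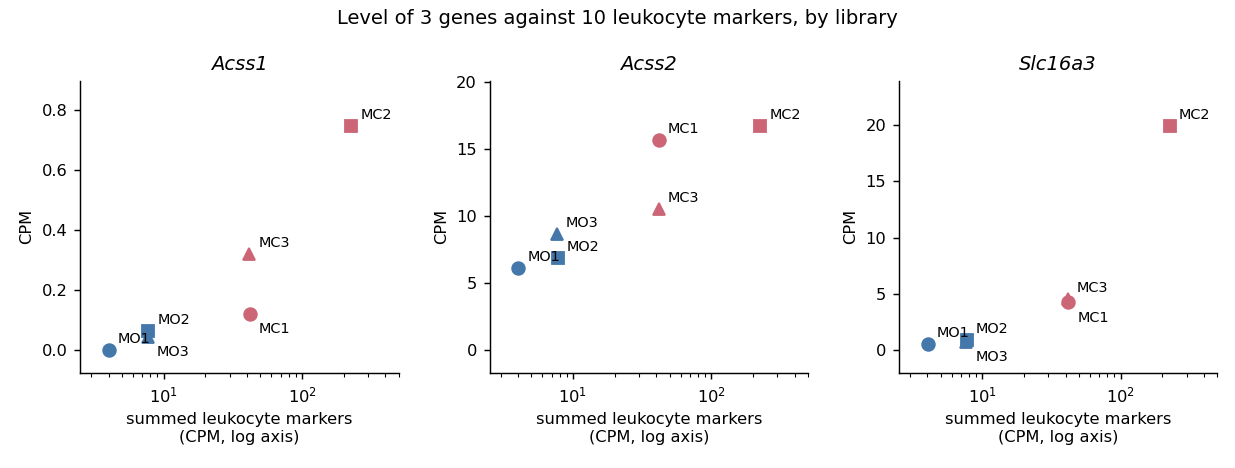
CPM of Acss1, Acss2 and Slc16a3 on linear axes against the summed CPM of 10 leukocyte markers on a log axis, with 1 labelled point per library, blue for MS-5 only and red for co-culture. MC2, at a marker sum of 226, is highest for all 3 genes, but for Acss2 it measures 16.7 against 15.7 in MC1, where the marker sum is 41.7.

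The thioesterases that hydrolyse acetyl-CoA did not differ detectably. Acot8 codes for a peroxisomal acyl-CoA thioesterase of wide specificity and lies at chr2:164792765-164804882 on the − strand. Acot8 measured 10.8, 10.5 and 11.1 CPM in the MS-5 only libraries, against 11.4, 12.0 and 9.49 CPM for co-culture. The co-culture libraries lay on both sides of the MS-5 only libraries, and the log2 fold change was 0.02 (SE 0.16, 95% interval −0.36 to 0.40, edgeR, adjusted p = 0.989).
What did vary for Acot8 was the kind of transcript. The coding Acot8-202 measured 10.3, 9.70 and 11.2 TPM in the MS-5 only libraries, against 11.1, 11.1 and 9.17 TPM for co-culture, with MO2 and MC3 lowest in their groups. Transcripts annotated as retained introns or as targets of nonsense-mediated decay, among them Acot8-204, held 49.9% of its TPM in MO2 and 46.1% in MC3, against 6.51% to 13.8% in the other 4 libraries. The gene's total TPM followed these transcripts, at 19.4 in MO2 and 17.5 in MC3 against 12.1 to 13.0 elsewhere. Acot8 overlaps Snx21 on the other strand.
Acot12, which codes for a cytosolic acetyl-CoA hydrolase known from liver and lies at chr13:91741512-91786148 on the + strand, was barely detected. It had 3, 11 and 5 counts in the MS-5 only libraries, against 4, 1 and 5 counts for co-culture, which overlapped. The ratio of its 10 co-culture counts to 19 MS-5 only counts was 0.453, with an exact 95% counting interval of 0.188 to 1.02. Most of the signal, 77.6% of TPM, was assigned to the 5-exon processed transcript Acot12-202, and 17.9% to the coding Acot12-201.

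Of the citrate route, neither gene passed with all 6 libraries and no covariate, although the TPM of Slc25a1 did not overlap between the groups. Slc25a1 codes for the mitochondrial citrate carrier and lies at chr16:17925223-17928219 on the − strand, where no other gene overlaps it. Slc25a1 measured 73.8, 54.7 and 92.2 CPM in the MS-5 only libraries, against 120, 116 and 78.1 CPM for co-culture. MC1 and MC2 were above every MS-5 only library, but MC3 was below MO3, so that the groups overlapped. In TPM they did not, with 59.6, 70.1 and 69.8 in the MS-5 only libraries, against 94.2, 90.3 and 101 for co-culture, a pattern that 7.68% of all genes showed in that direction.
The log2 fold change of Slc25a1 was 0.51 (SE 0.25, 95% interval −0.09 to 1.11). It did not pass in edgeR with all 6 libraries and no covariate (adjusted p = 0.439). On log2(TPM + 0.5) limma gave 0.52 (SE 0.18), with an unadjusted p-value of 0.0272 and an adjusted p-value of 0.413. The difference was 0.51 between MC3 and MO2 and 0.51 between the means of the other libraries, on the log2 CPM scale. With single libraries left out the log2 fold change ran from 0.33 without MO2 to 0.70 without MO3, and none of these fits passed. The gene passed with the covariate for MO2 and MC3 (0.51, SE 0.09, adjusted p = 0.0200) and without both libraries (0.52, SE 0.13, adjusted p = 0.0911), both by edgeR.
The coding transcript Slc25a1-201 measured 49.3, 55.2 and 61.7 TPM in the MS-5 only libraries, against 81.9, 72.6 and 78.5 TPM for co-culture, without overlap. The retained intron Slc25a1-202 held 15.7% of the gene's TPM and was highest in MC3, at 20.2 TPM.

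Acly, the gene of ATP citrate lyase, lies at chr11:100476353-100528000 on the − strand. Acly measured 199, 199 and 173 CPM in the MS-5 only libraries, against 184, 198 and 178 CPM for co-culture. All co-culture values fell between the lowest and the highest MS-5 only value. On the log2 scale the fold change was −0.03 (SE 0.13, 95% interval −0.35 to 0.29, edgeR, adjusted p = 0.980).
The level of Acly was spread over 3 coding transcripts that share most exons, and their shares differed between libraries. Acly-201 (28 exons) was at 5.41 TPM in MC2 and at 20.6 to 28.8 TPM in the other 5 libraries. Acly-203 (29 exons) was at 22.8 TPM and Acly-207 (27 exons) at 20.6 TPM in MC2. In MO2 they were at 23.6 and 23.5 TPM and in MC3 at 25.6 and 20.2 TPM, and in MO1, MO3 and MC1 they were lower, at most 17.1 and 9.97 TPM. Such near-identical transcripts are separated by few reads, and their estimates were not tested.

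**Figure D3:**
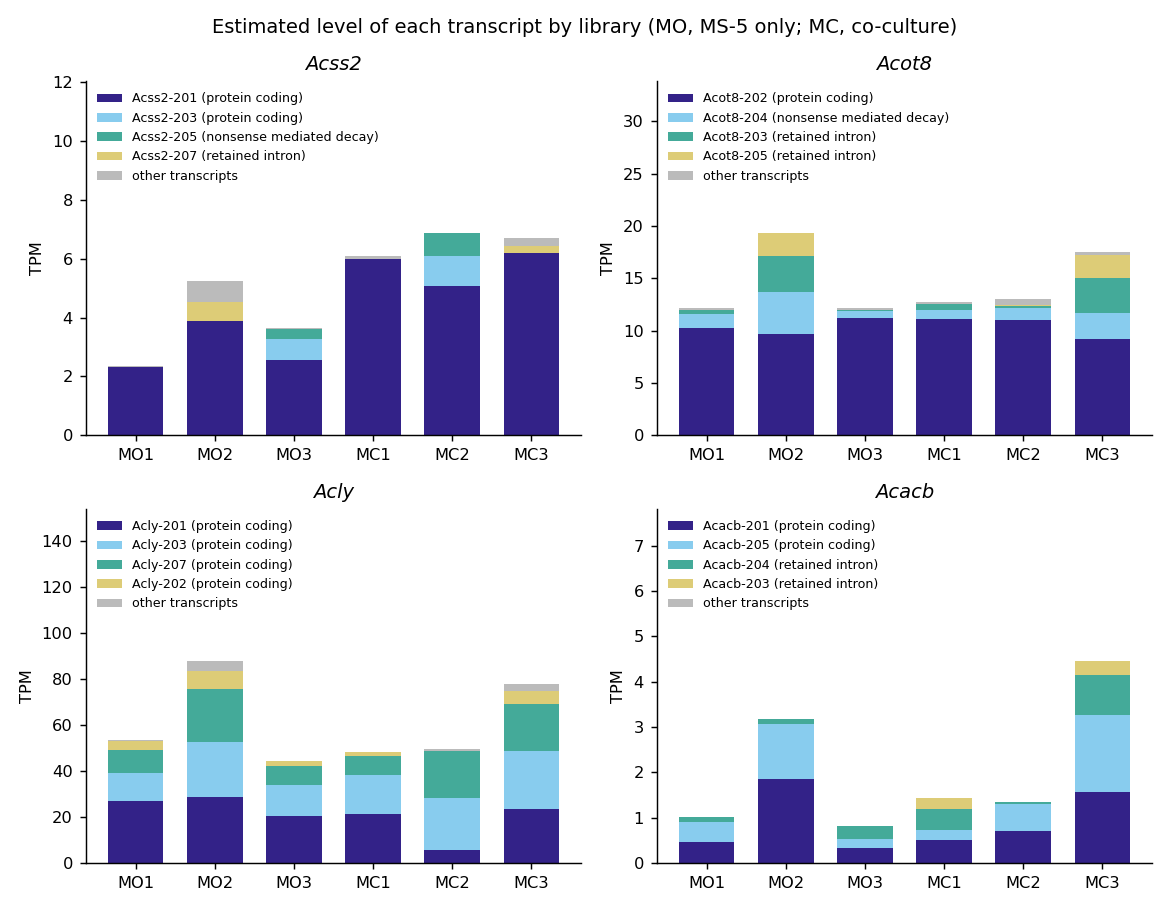
Stacked bars of the TPM of single transcripts in each library for Acss2, Acot8, Acly and Acacb, with MO for MS-5 only and MC for co-culture. Acss2-201 fills most of the Acss2 bars, the retained-intron and decay transcripts of Acot8 appear mainly in MO2 and MC3, and Acly-201 is small in MC2.

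The acetyl-CoA carboxylases did not pass. Acaca codes for the cytosolic carboxylase of fatty acid synthesis and lies at chr11:84129672-84401651 on the + strand. Acaca measured 125, 107 and 90.7 CPM in the MS-5 only libraries, against 90.2, 89.9 and 84.7 CPM for co-culture. All co-culture values were below all MS-5 only values, MC1 only just below MO3, but in TPM the groups overlapped. Its log2 fold change was −0.29 (SE 0.15, 95% interval −0.65 to 0.07, edgeR, adjusted p = 0.472). It was negative in all 18 alternatives, from −0.40 without MO3 to −0.14 without MO1. Acaca-201, the coding transcript of 54 exons, held 75.3% of the TPM, and the short Acaca-206, with 8.85 to 20.3 estimated counts a library, held 14.2%.
Acacb codes for the carboxylase at the mitochondrial outer membrane, whose malonyl-CoA restrains fatty acid import, and lies at chr5:114146535-114250761 on the + strand. Acacb measured 4.43, 10.1 and 4.53 CPM in the MS-5 only libraries, against 6.90, 6.27 and 11.7 CPM for co-culture. MO2 and MC3 were the highest library of their group, at more than the level of any other library. Its log2 fold change was 0.38 (SE 0.42, 95% interval −0.62 to 1.38, edgeR, adjusted p = 0.804). Without MO2 it was 0.88, without MC3 0.05, without MO1 0.21 and without MO3 0.19, and none of these passed. Given the covariate for MO2 and MC3 it was 0.44 (SE 0.14, adjusted p = 0.0719), which passed, but without both libraries the gene did not pass. Acacb-201, the coding transcript of 52 exons, held 44.4% of the TPM. The 5-exon Acacb-205 held 35.9% on 2 to 17.2 estimated counts a library, and the retained intron Acacb-204 held 15.1%.

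**Figure D4:**
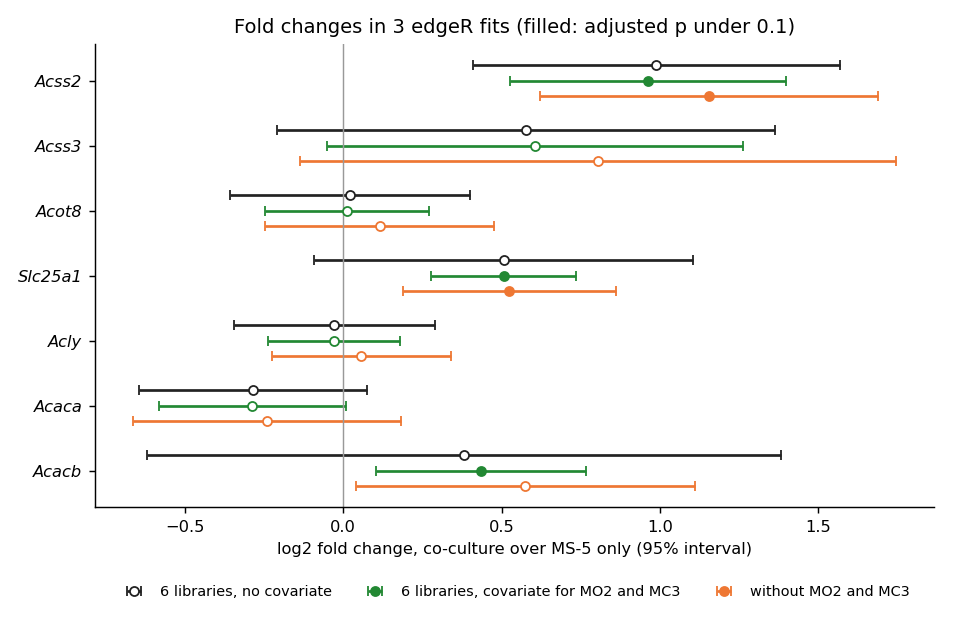
Log2 fold changes with 95% intervals of the 7 tested genes in 3 edgeR fits: all 6 libraries without a covariate (black), with a covariate for MO2 and MC3 (green) and without those libraries (orange), filled where the adjusted p is under 0.1. Acss2 and Slc25a1 are filled in the green and orange fits, Acacb only in the green, and no black point is filled.

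Ratios within a library do not depend on the scaling between libraries. The TPM of Acss2 was 4.43%, 5.94% and 8.17% of that of Acly in MO1, MO2 and MO3, and 12.6%, 13.9% and 8.58% in MC1, MC2 and MC3. Every co-culture library was above every MS-5 only library, with MC3 close to MO3. The log2 ratio was −4.06 ± 0.44 in MS-5 only and −3.13 ± 0.37 in co-culture (SD, n = 3), a difference of 0.94 with a two-sided exact permutation p of 0.1, the smallest that 3 against 3 libraries can give. The log2 ratio of Acaca to Acacb was 3.76 ± 0.72 in MS-5 only and 2.99 ± 0.65 in co-culture, a difference of −0.77 with an exact permutation p of 0.3. These were the 2 ratios tested, and neither could pass 0.05.
Acss2 supplied most of the synthetase transcripts in every library, from 81.9% to 92.1% of the TPM of the 3 synthetases in MS-5 only and from 75.5% to 87.6% in co-culture. Acacb made up 5.09%, 11.6% and 5.37% of carboxylase TPM for MS-5 only, against 8.70%, 9.01% and 17.4% for co-culture, highest in MO2 and MC3.
Over the 6 libraries the log2 CPM of Acss2 correlated with that of Slc25a1 at r = 0.86 and with that of Acaca at r = −0.75. Among all tested genes, Acss2 was most like Gm14057 (r = 0.99), Pdk2 (r = 0.99), a pyruvate dehydrogenase kinase, and Zfp652 (r = 0.99). These describe 6 points that share group, depth and library type.

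Around these genes, 62 further genes of acetate, citrate and acetyl-CoA metabolism were listed by role, of which 51 were tested and 1, Slc16a3, passed (edgeR), against 4.38% of all genes. The log2 fold change was positive for 24 and negative for 27, with a median of −0.05. Co-culture libraries lay above all MS-5 only libraries for 7 of the 51 and below them for 5, against 11.6% and 9.60% of all genes, which is a similar share. Under the covariate for MO2 and MC3, 6 passed as higher and 6 as lower, against 30.2% of all genes. The higher genes were Slc16a3, Bsg, Aldh1b1, Scd1, Scd2 and Sirt3, and the lower ones Acot2, Acot9, Aco1, Me2, Elovl6 and Mid1ip1.
Slc16a3 codes for the proton-linked monocarboxylate transporter MCT4, which exports lactate and can carry acetate. Slc16a3 had 13, 28 and 17 counts in the MS-5 only libraries, against 141, 480 and 155 counts for co-culture. That is 0.519, 0.891 and 0.771 CPM against 4.30, 19.9 and 4.51 CPM, with MC2 far above the rest and no overlap. It rose by a log2 fold change of 3.70 (SE 0.73, edgeR, adjusted p = 0.0764), and by 2.59 without MC2 (adjusted p = 0.0431). Leaving out any single MS-5 only library lost the call, along with every other call in the data. The call was also lost with limma on log2(TPM + 1) and at a threshold of 0.05. The part of the leukocyte markers, which moved in the same libraries, was not tested.
Of the other transporters, the chaperone Bsg, at 888 ± 70.3 TPM in MS-5 only and 1323 ± 146 TPM in co-culture, had a log2 fold change of 0.57 (adjusted p = 0.393). Bsg passed as higher with the covariate for MO2 and MC3 (0.58, adjusted p = 0.0156) and without both libraries (0.59, adjusted p = 0.0825), by edgeR. Slc16a1, which codes for MCT1, had 0.24 (adjusted p = 0.624). All 4 transport genes tested had positive values and 1 passed.

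Of the aldehyde dehydrogenases, which can make acetate from acetaldehyde, 0 of 7 passed. Aldh2 was at 1087 ± 520 TPM in MS-5 only and 1174 ± 413 TPM with co-culture, or 0.15 on the log2 scale. Aldh3a1 was at 134 ± 27.1 and 153 ± 30.8 TPM, a log2 fold change of 0.20. Both were far more abundant than any acetyl-CoA synthetase here. Aldh1b1, named after its values were seen, measured 1.28, 1.02 and 1.13 CPM in the MS-5 only libraries, against 2.32, 3.90 and 1.34 CPM for co-culture. Its groups did not overlap, and its log2 fold change was 1.13 (SE 0.45, edgeR, adjusted p = 0.326). With the covariate for MO2 and MC3 Aldh1b1 passed as higher (1.04, adjusted p = 0.0930).
Of 12 other acyl-CoA thioesterases, 6 were tested and 0 passed, with 2 positive and 4 negative values. The most abundant were Acot7, a cytosolic enzyme for long-chain acyl-CoA, with a log2 fold change of −0.33 (adjusted p = 0.764), and the mitochondrial Acot9, with −0.25 (adjusted p = 0.787). Acot2, for a mitochondrial enzyme and named after its values were seen, measured 14.8, 17.4 and 12.3 CPM with MS-5 only and 8.94, 10.3 and 11.8 CPM after co-culture. Its groups did not overlap, and its log2 fold change was −0.52 (SE 0.19, edgeR, adjusted p = 0.287). With the covariate for MO2 and MC3 both passed as lower, Acot2 at −0.52 (adjusted p = 0.0320) and Acot9 at −0.25 (adjusted p = 0.0340).
Of 8 citrate and malate enzymes, 0 passed and 7 had negative values. The malate dehydrogenases Mdh2, at 713 ± 60.7 and 615 ± 57.2 TPM, and Mdh1, at 232 ± 14.1 and 229 ± 9.77 TPM, had log2 fold changes of −0.20 and −0.05.
The 8 genes of fatty acid synthesis were evenly divided, 4 positive and 4 negative, and 0 passed. Scd2, a stearoyl-CoA desaturase, measured 120 ± 25.4 TPM in MS-5 only and 170 ± 15.0 TPM with co-culture, or 0.52 on the log2 scale (adjusted p = 0.381), and passed in the covariate fit (adjusted p = 0.0392). The elongase Elovl5 had −0.06. Scd1, another desaturase, named after its values were seen, measured 47.6, 59.6 and 70.3 CPM in the MS-5 only libraries, against 100.1, 106 and 87.3 CPM for co-culture. Its groups did not overlap, and the log2 fold change was 0.73 (SE 0.18, edgeR, adjusted p = 0.111). Scd1 passed as higher with DESeq2 size factors (adjusted p = 0.0964), in DESeq2's Wald test (0.00468), with the covariate for MO2 and MC3 (0.0254) and without both libraries (0.0863).
Of 8 acetyl-CoA thiolases and carnitine shuttle genes 0 passed, with Acaa2 at −0.08 and Crat, carnitine acetyltransferase, at −0.06 on the log2 scale. Of 12 regulators, 10 were tested and 0 passed. Mid1ip1, which codes for an activator of acetyl-CoA carboxylase, had a log2 fold change of −0.31 (adjusted p = 0.358), with all co-culture libraries below all MS-5 only libraries in CPM, and passed as lower with the covariate (adjusted p = 0.0262). The deacetylase gene Sirt2 had 0.08. Of all 51 neighbours tested, 6 reached an unadjusted p under 0.05 by edgeR, against 14.3% of all genes.

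**Figure D5:**
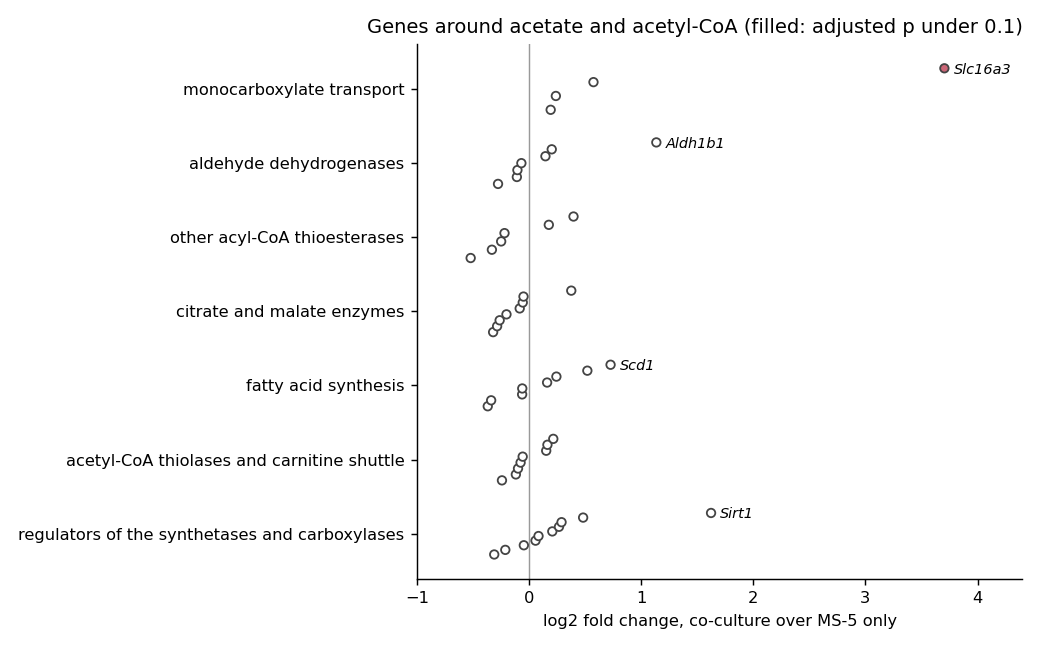
Log2 fold change of 51 tested genes around acetate and acetyl-CoA in 7 lists, 1 point a gene, filled where the adjusted p is under 0.1 in edgeR. Slc16a3 at 3.70 is the single filled point, and most others lie between −0.5 and 0.6.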

How the data were processed

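Libraries were grouped by the sample labels. The authors quantified reads with kallisto (0.43.0 in the submitters' processing notes, which also name FastQC 0.11.7 and sleuth 0.30.0) against mouse transcripts, and deposited an estimated count, a length and a TPM value per transcript, unfiltered and unpooled. Of 118489 transcripts, 116728 matched GENCODE M21 (GRCm38) and the other 1761 were left out.
Per gene, the estimated counts deposited by the authors were added up and rounded, and the TPM values were added up. Genes were filtered (filterByExpr), normalized by TMM and tested with edgeR 4.0.16 (R 4.3.3, quasi-likelihood, Benjamini-Hochberg, threshold 0.1), after the script was tested on simulated data. CPM are TMM-normalized, with a prior count of 2 for log2 CPM. A standard error is the log2 fold change over the root of F.
Alternatives were DESeq2 1.42.0 (Wald test or size factors), library size, limma 3.58.1 on log2(TPM + 0.1, 0.5 or 1), a length offset, other filters and a replicate block. Further ones were a covariate for MO2 and MC3 (which stood apart in mitochondrial and retained-intron share), libraries left out and a threshold of 0.05.
Members, lists and tests were chosen with earlier results of these data known. Named were all members, listed neighbours past the threshold, the 2 most abundant of each list, the 3 genes most like Acss2, and transcripts with at least 10% of a member's TPM. Genes marked as named after their values were seen fall outside this rule.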

Additional observations from a re-analysis of the deposited data

How the results depend on the processing

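Of 126 alternative fits of the 7 tested members, 118 left the gene on the same side of the threshold, 8 moved it past, and 0 turned a called direction. The values of Acly (3 positive, 15 negative) and Acot8 (15 positive, 3 negative) crossed 0 without a call. The members called, 0 of 7 in edgeR, became 1 with library size only, 1 with the DESeq2 Wald test, 3 with the covariate for MO2 and MC3, 2 without both libraries, and 0 to 1 with each library left out, the 1 being Acss2 without MC3. The listed neighbours called, 1 by edgeR, became 2 with DESeq2 size factors, 2 with the DESeq2 Wald test, 0 with limma on log2(TPM + 1), 12 with the covariate, 3 without both libraries, 0 at a threshold of 0.05, and 0 to 1 with each library left out. Over all genes the 579 calls became 1268 with the DESeq2 Wald test, 264 with limma on log2(TPM + 0.5), 111 on log2(TPM + 1), 3999 with the covariate, 1702 without both libraries and 2 at a threshold of 0.05. They ranged from 0 to 549 with each library left out. The 0 came without MO1, MO2 or MO3, where edgeR still gave 1478, 2819 and 1578 genes at an unadjusted p under 0.05, and 283 and 281 were called without MC1 or MC2. The causes were not tested.
Same-numbered libraries deviated together with r = 0.53, −0.29 and −0.52, while MO2 and MC3 gave the highest value, 0.73. With 3 libraries a group, of which MO2 and MC3 stood apart, this cannot decide whether the replicate numbers pair the libraries. With the replicate block 444 genes, 0 members and 1 neighbour were called, and Acss2 had an adjusted p of 0.353 (edgeR). The group difference in the log2 ratio of Acss2 to Acly was 0.72 to 1.16 with each library left out. At this depth Acss1 and Acot12 had 0 to 18 counts a library and did not pass the filter.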

Other observations

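Of the 6 listed thioesterase genes under the count filter, 3, named after their values were seen, had more counts in each co-culture library than in any MS-5 only library, and Acot1, Acot5 and Acot6 overlapped. The same pattern was found for 9.72% of the 9711 genes under the filter with at least 1 count. Acot3, for a peroxisomal enzyme, had 0, 0 and 0 counts in the MS-5 only libraries, against 6, 15 and 4 for co-culture. Acot10 had 0, 0 and 1 against 3, 7 and 3 counts, and Acot11 had 0, 3 and 2 against 12, 19 and 7. All were highest in MC2, as were Acss1 and Slc16a3. The deacetylase gene Sirt1, whose product can activate the cytosolic acetyl-CoA synthetase, was also named after its values were seen. Sirt1 had 17, 29 and 19 counts in the MS-5 only libraries, against 28, 126 and 54 for co-culture. MC2 was again highest and MC1 was below MO2, with a log2 fold change of 1.62 (edgeR, adjusted p = 0.368). The leukocyte marker sum was likewise highest in MC2, and its part in these values was not tested.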
